A study of Rattus norvegicus with 22 samples.

Results

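The cytosolic ribosomal protein genes were taken as a group from an RNA-seq count table of the rat hippocampus after traumatic brain injury (TBI). Symbols beginning with Rpl or Rps and a digit were kept together with Rplp0, Rplp1, Rplp2 and Rpsa, kinases and symbols with -ps or ending in l1 were left out, and a count sum of at least 100 over 14 samples was required. This gave 73 genes of the 17172 in the table, 30 of the small subunit and 42 of the large subunit by symbol. The remaining gene, Rps19bp1, encodes a protein that binds Rps19 and is not itself a ribosomal protein. A further 10 symbols of the family fell under the count sum, among them Rps19 and Rpl8 with 0 counts in every sample and Rps6 with 9 counts in all.

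Ribosomal proteins and ribosomal RNA build the small subunit, which holds and decodes the mRNA, and the large subunit, which joins amino acids and carries the exit tunnel. Because each protein is needed in about equal amounts, cells tend to regulate these genes together, in large part at translation: their mRNAs commonly begin with a run of pyrimidines at the 5′ end, through which mTOR signaling and Larp1 control how many of them are translated. Some free ribosomal proteins have other roles, such as Rpl5, Rpl11 and Rpl23, which bind Mdm2 and so stabilise p53. In the nervous system, ribosomal protein mRNAs are also found in neuronal processes and in glia, and ribosome production commonly rises where cells grow or divide.

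RNA came from the ipsilateral (right) hippocampus of adult male Sprague-Dawley rats killed 1 or 14 days after lateral fluid percussion, a pressure pulse on the exposed dura, or after sham surgery. Sham rats had the craniotomy and anesthesia but no pulse, so all 4 groups share the surgery. The day 1 groups held 2 sham and 4 TBI animals and the day 14 groups 4 of each, with 1 library per rat. The study's text gives the number of sham rats at day 14 in 2 ways, and all 4 labelled samples were used. Poly(A) RNA was sequenced as single-end reads, and the depth was 15065540 to 23743703 counts per sample.

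The start of the gene was read for 58 of the 73 members that matched a promoter entry of RefSeq (GRCr8) by symbol. The entries for 10 members are shown because they carry the main patterns below. Each is 60 bases around the annotated transcription start, 30 before it and 30 from it on, written 5′ to 3′ on the strand of the gene, with the run of 8 or more C or T bases that lies at the start in capitals.
Rplp0 (chr12:46718361-46718420, minus strand): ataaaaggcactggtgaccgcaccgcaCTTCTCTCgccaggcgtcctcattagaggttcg
Rpl23 (chr10:83272155-83272214, minus strand): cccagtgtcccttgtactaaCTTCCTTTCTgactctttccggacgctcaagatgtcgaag
Rps24 (chr16:96487-96546, plus strand): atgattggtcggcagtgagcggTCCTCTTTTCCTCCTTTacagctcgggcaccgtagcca
Rps7 (chr6:50999416-50999475, minus strand): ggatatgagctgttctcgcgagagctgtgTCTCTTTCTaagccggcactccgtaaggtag
Rpl29 (chr8:115947613-115947672, plus strand): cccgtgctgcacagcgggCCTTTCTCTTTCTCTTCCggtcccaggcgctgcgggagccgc
Rps2 (chr10:14251818-14251877, plus strand): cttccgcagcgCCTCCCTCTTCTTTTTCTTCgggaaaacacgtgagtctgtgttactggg
Rps18 (chr20:4933715-4933774, plus strand): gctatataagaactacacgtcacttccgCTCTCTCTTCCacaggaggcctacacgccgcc
Rps27 (chr2:177964577-177964636, minus strand): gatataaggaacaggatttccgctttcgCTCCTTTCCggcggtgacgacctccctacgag
Rps27l (chr8:76443628-76443687, plus strand): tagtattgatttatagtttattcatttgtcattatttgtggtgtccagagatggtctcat
Rpl36a (chrX:102059419-102059478, plus strand): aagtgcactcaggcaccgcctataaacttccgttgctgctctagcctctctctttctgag

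A run of at least 8 C or T bases within 10 bases of the start was present in 40 of the 58 matched members (69.0%), against 13.5% of all 27457 promoters in the same reference. Rps27l and Rpl36a are among the 18 without one, although the bases shown for Rpl36a hold such a run further downstream than 10 bases. The same run on the other strand, of A or G, was present in 1.72% of members and 15.0% of all promoters. In the full 300 bases of each entry, searched on both strands, CCGGAA was found in 50.0% of members and 15.8% of all promoters, CACGTG in 8.62% and 6.65%, and TATAAA in 13.8% and 14.3%. These are matches of letters in an annotated window and not sites of a factor.

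Some libraries stood apart before any comparison. Choroid plexus markers (9 genes, with Otx2 listed at 0 in every group) summed to 8283 CPM (counts per gene scaled to the size of the library) in sham day 1 replicate 1, against 7.56 in the other sham day 1 rat and 15.0 to 21.8 in the TBI rats of that day. The same sum was 7435 CPM in TBI day 14 replicate 3 and 1496 CPM in replicate 2. Hippocampal markers (Prox1, Neurod6, Wfs1 and Grik4) were present in every sample, and their sum was lowest in TBI day 1 replicate 1, at 246 CPM, where neuronal markers were also lowest.

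As a group, the ribosomal protein genes took a larger part of the hippocampal counts 1 day after TBI than in any other sample. Their share of all counts was 0.480% and 0.318% in the sham day 1 rats and 0.908%, 0.649%, 0.778% and 0.643% in the TBI day 1 rats. At day 14 the sham rats lay between 0.325% and 0.385% and the TBI rats between 0.383% and 0.466%. No TBI day 1 rat overlapped any rat of the other groups. The means were 0.399% ± 0.115 (SD, n = 2) in sham and 0.744% ± 0.126 (SD, n = 4) in TBI at day 1, and 0.361% ± 0.0256 and 0.411% ± 0.0385 (SD, n = 4 each) at day 14. The 2 sham day 1 rats differed from each other by more than the 4 sham day 14 rats did. The share is not spread evenly, since 54.5% of the member counts came from 10 genes, with Rpl3 and Rplp0 the highest.

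**Figure D1:**
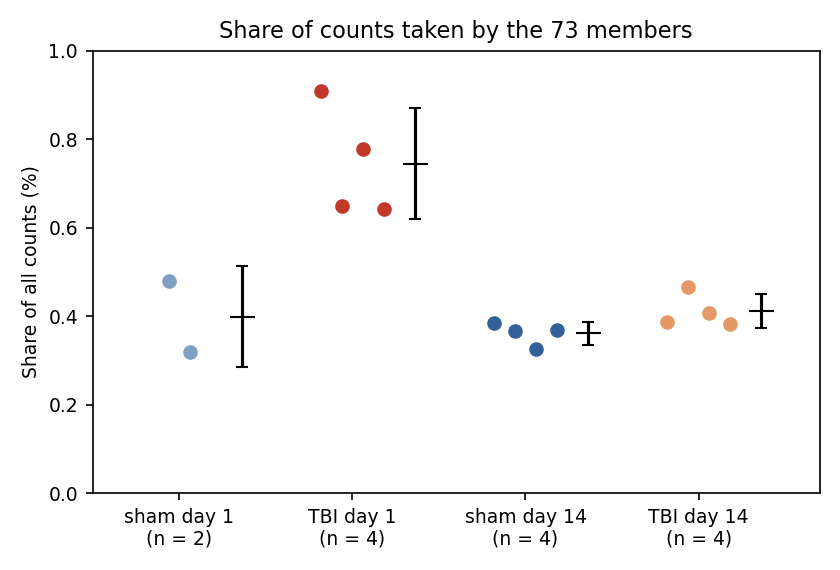
Share of all counts (%, vertical axis from 0) taken by the 73 ribosomal protein genes in each sample (points) of the 4 groups, with the group mean and SD (black). The 4 TBI day 1 samples lie between 0.643% and 0.908%, above all 10 other samples.

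To ask which members differed between TBI and sham at day 1, each gene was tested in 1 edgeR quasi-likelihood fit over all 14 samples, and a gene was called at a Benjamini-Hochberg adjusted p under 0.05 over the 12875 genes tested. Of the 73 members, 34 rose and 0 fell, while 11.2% of all tested genes rose and 7.93% fell. Without the adjustment, 49 members were higher and 0 lower at p under 0.05, beside 17.4% and 17.0% of all tested genes. The log2 fold change was above 0 in 67 of 73 members, as in 48.7% of all tested genes, and its median was 0.75 (1.68-fold) beside -0.02 over all tested genes. In 39 members every TBI rat lay above both sham rats, as did 16.7% of all tested genes. In bulk tissue, a change in the number of cells of a type and a change in the RNA per cell cannot be told apart.

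Both subunits took part. Of the small-subunit genes 13 of 30 rose, with a median log2 fold change of 0.83, and of the large-subunit genes 21 of 42 rose, with a median of 0.67. For Rps19bp1, the binding protein, the log2 difference was 0.08 ± 0.18 (SE; adjusted p = 0.776, edgeR). All 34 members that rose were among the 53 with at least 1000 counts over all samples, and 0 of the 20 with fewer counts passed the test, although the medians of both sets were close (0.75 and 0.73). The plot of members by effect shows the wide errors of the members with few counts.

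**Figure D2:**
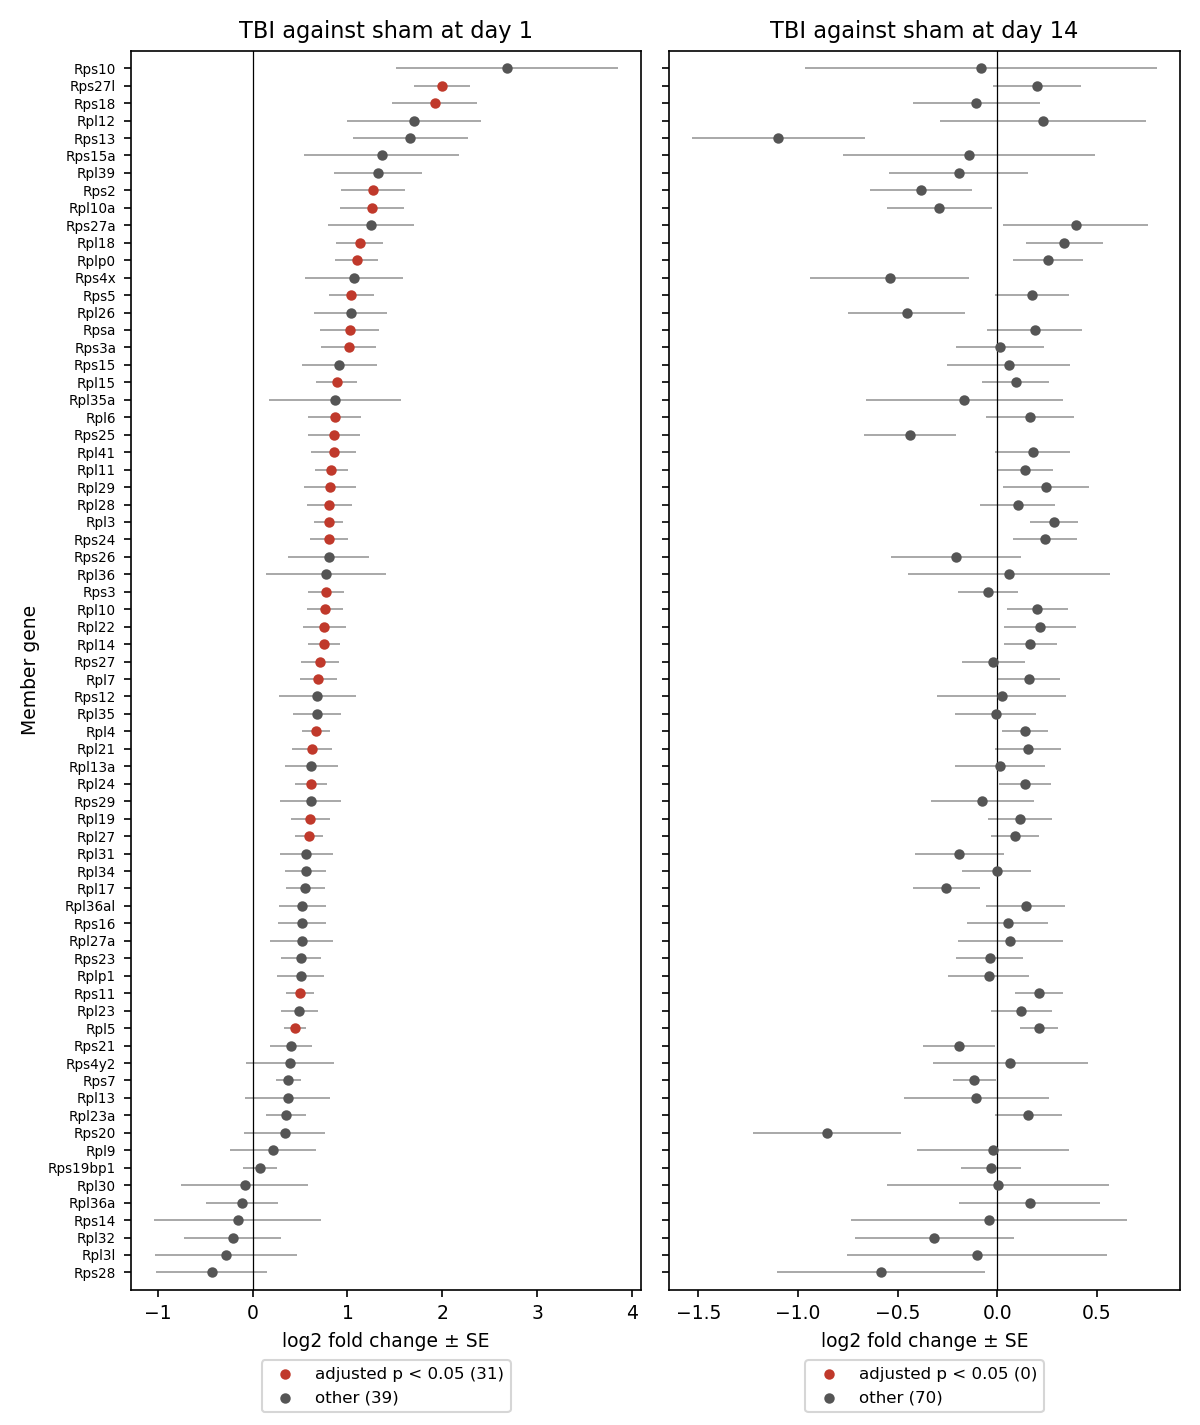
Log2 fold change with its SE (horizontal) for 70 members, ordered by the day 1 value, for TBI against sham at day 1 (left) and day 14 (right), with members at an adjusted p under 0.05 in red. At day 1, 31 of the members drawn are red, all to the right of 0, and at day 14 none is.

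The calls at day 1 rest on 1 of the 2 sham rats. Without sham day 1 replicate 2, 1 member rose (Rps27l) and 0 fell, beside 4.23% and 2.80% of all tested genes, so that calls were fewer in the whole table too. The median log2 fold change of the members was 0.49, and all 34 kept a fold change above 0. Without sham day 1 replicate 1, the sample with choroid plexus markers, 40 rose and 0 fell, beside 12.4% and 9.76% of all tested genes, and the median was 0.98. Without TBI day 1 replicate 1, the sample with the lowest neuronal markers, 26 rose and 0 fell, beside 11.1% and 7.66%, and the median was 0.62. Where 1 sham day 1 rat is left, it is taken to vary as the other groups do. In a fit of the 6 day 1 samples alone 1 member rose and 0 fell, beside 4.38% and 0.739% of the genes tested there.

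The sham rats of day 14 give a second baseline of 4 animals for the TBI rats of day 1, with the day differing as well as the injury. Against them 35 members rose and 1, Rps2, fell, with a median log2 fold change of 0.47, while 25.0% of all tested genes rose and 21.0% fell. With each rat outside sham day 1 left out in turn, 31 to 36 members passed in either direction. The fewest came without sham day 14 replicate 3, with 29 higher and 2 lower, beside 2995 and 2479 of 12868 tested genes. Without TBI day 14 replicate 1, 35 were higher and 1 lower, beside 3109 and 2563 of 12867 tested genes. Of the 34 members that rose against sham day 1, 21 also rose against sham day 14, 12 did not pass and Rps2 fell. The comparisons share the TBI rats. In 19 members all 4 TBI day 1 rats lay above all 10 other rats, as in 8.26% of all tested genes.

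**Figure D3:**
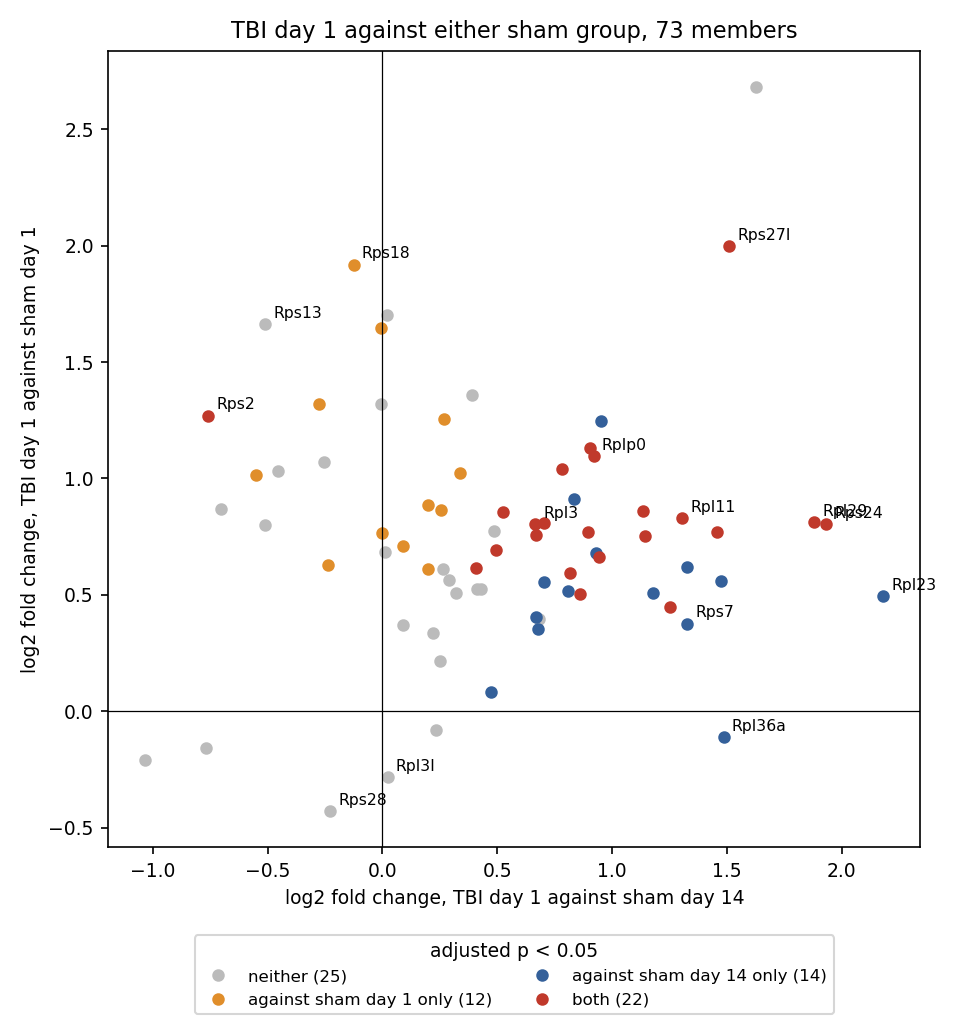
Log2 fold change of TBI day 1 against sham day 14 (horizontal) and against sham day 1 (vertical) for the 73 members, coloured by which comparison passed an adjusted p of 0.05, with some members named. Of the 22 members that passed in both, 21 lie at the upper right, and Rps2 lies left of 0 because it rose against sham day 1 and fell against sham day 14.

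Among the members that were high in TBI day 1 alone, Rps27l showed the largest change of those that passed. It encodes a close paralog of the small-subunit protein Rps27 and is a known p53 target. Its level was 3.99 and 2.03 CPM in the sham day 1 rats and 11.3, 10.5, 14.7 and 11.5 CPM in the TBI day 1 rats. It was 5.18, 3.36, 4.60 and 3.70 CPM in sham day 14 and 4.64, 5.51, 5.12 and 4.07 CPM in TBI day 14. Every TBI day 1 rat was thus at least 10.5 CPM and every other rat at most 5.51 CPM. The log2 fold change was 2.00 ± 0.29 (SE; adjusted p = 0.00034, edgeR) against sham day 1 and 1.51 ± 0.22 (adjusted p = 8.1e-05) against sham day 14. Rps27l is the only member that passed at day 1 in each of the 14 fits with 1 sample left out, and the reference names 0 pseudogenes of it.

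Its partner Rps27 carries the pyrimidine run at its annotated start, and Rps27l does not at its own. Transcription starts were not measured here. Rps27 had 7.87 and 9.41 CPM in sham day 1 and 15.5, 10.8, 15.5 and 14.9 CPM in TBI day 1, with no overlap. In sham day 14 it had 15.5, 11.7, 12.8 and 13.3 CPM, a range that the TBI day 1 rats overlap. The log2 fold change was 0.71 ± 0.20 (adjusted p = 0.0226, edgeR) against sham day 1 and 0.09 ± 0.16 (adjusted p = 0.670) against sham day 14.

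The P stalk of the large subunit, which recruits elongation factors, was represented by its scaffold Rplp0 and by Rplp1, while Rplp2 had 4 counts in all. Rplp0 had 367 and 191 CPM in sham day 1 and 701, 545, 630.5 and 510.0 CPM in TBI day 1. Its levels at day 14 were 338, 310.0, 268 and 346 CPM in sham and 338, 416, 359 and 391 CPM in TBI. All TBI day 1 rats lay above all others. Rplp0 rose by 1.10 ± 0.23 on the log2 scale against sham day 1 (adjusted p = 0.00412, edgeR) and by 0.92 ± 0.18 against sham day 14 (adjusted p = 0.00074). Rplp1 passed against sham day 14 alone (log2 fold change 1.18) and had 0.51 against sham day 1.

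Rpl3, which lies near the peptidyl transferase centre, was the member with the most counts. It had 382 and 290.4 CPM in sham day 1, 642, 528, 641 and 536 CPM in TBI day 1, and 391, 389, 339 and 364 CPM in sham day 14. Its log2 fold change at day 1 was 0.80 ± 0.15 (adjusted p = 0.00229, edgeR), and every TBI day 1 rat was above every other rat, with TBI day 14 at 424 to 492 CPM. The muscle paralog Rpl3l had between 0.0448 and 0.916 CPM in all samples and did not pass (log2 fold change -0.28 ± 0.75, adjusted p = 0.820).

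Both proteins that enter the large subunit with the 5S RNA, Rpl5 and Rpl11, rose at day 1, by 0.45 and 0.83 on the log2 scale, and rose against sham day 14 by 1.25 and 1.30. All TBI day 1 rats lay above all others in both genes. At the rim of the exit tunnel, 1 of 7 members (Rpl19) passed against sham day 1 and 3 of 7 rose against sham day 14. Log2 fold changes in that set ran from 0.35 to 1.32 against sham day 1. Of all tested genes 11.2% rose against sham day 1 and 25.0% against sham day 14. Sets of so few genes cannot show whether a site departs from these shares. Of the 2 proteins at the mRNA exit, Rps26 and Rps28, 0 passed in either comparison. Of those at the mRNA entry, Rps3 rose against both baselines and Rps2 did not, as given below. Rpsa, also known as the laminin receptor, rose by 1.02 against sham day 1 and had 0.34 against sham day 14.

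**Figure D4:**
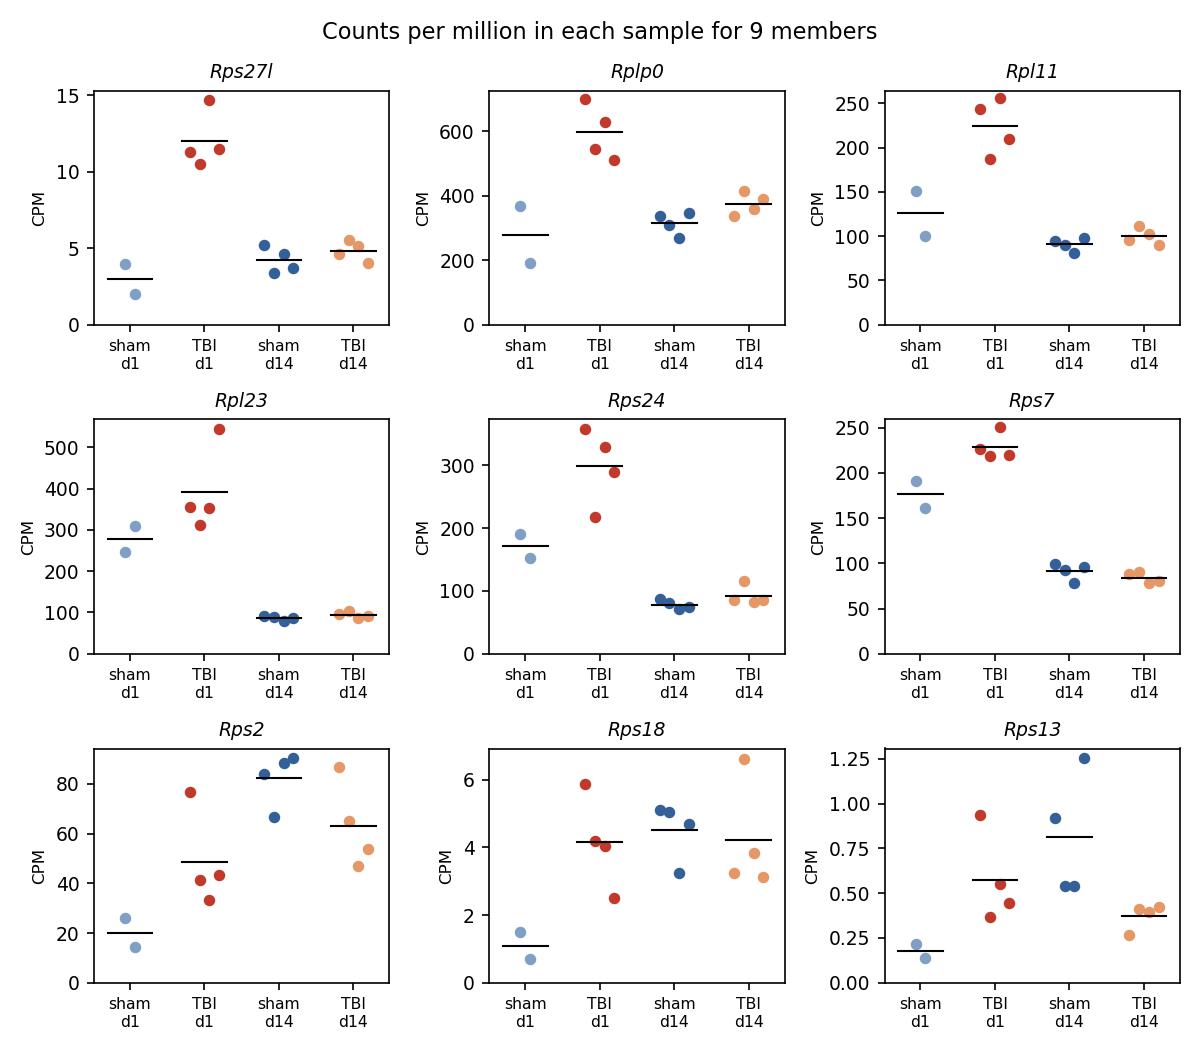
Level in CPM (vertical axes from 0) in each sample (points) of the 4 groups, with the group mean (line), for 9 members. In the top row TBI day 1 stands above the rest, and in the middle row both day 1 groups stand above both day 14 groups. In the bottom row sham day 1 stands below the rest. There TBI day 1 overlaps the day 14 range for Rps18 and Rps13, and for Rps2 only replicate 1 (76.7 CPM) lies within it.

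In a second pattern, the level was low in sham day 1 and the TBI day 1 rats were near or below the day 14 rats. Rps18, in the head of the small subunit, and Rps2, both among the largest increases at day 1, follow it. Rps2, which lines the entry of the mRNA channel, had 25.9 and 14.4 CPM in sham day 1 and 76.7, 41.2, 33.4 and 43.2 CPM in TBI day 1. It had 83.8, 66.8, 88.2 and 90.4 CPM in sham day 14 and 86.6, 65.2, 46.8 and 53.9 CPM in TBI day 14. The sham day 1 rats were the lowest of all, and 3 of the 4 TBI day 1 rats were below all day 14 rats. Rps2 thus rose by 1.27 ± 0.34 on the log2 scale against sham day 1 (adjusted p = 0.0172, edgeR) and fell by 0.76 ± 0.26 against sham day 14 (adjusted p = 0.0255). The fall passed in 8 of 14 fits with 1 sample left out, and did not pass without sham day 14 replicate 1, 3 or 4 or TBI day 1 replicate 2, 3 or 4 (adjusted p of 0.0507 to 0.0775, edgeR) or with library totals (0.0751).

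Rps18 had 1.51 and 0.692 CPM in sham day 1, 5.86, 4.18, 4.03 and 2.51 CPM in TBI day 1, and 5.11, 5.05, 3.25 and 4.68 CPM in sham day 14. Its log2 fold change was 1.92 ± 0.45 against sham day 1 (adjusted p = 0.00840, edgeR) and -0.13 ± 0.32 against sham day 14 (adjusted p = 0.772). The TBI day 1 rats did not overlap sham day 1 and did overlap sham day 14. Rps13, another small-subunit protein, had 0.216 and 0.138 CPM in sham day 1, 0.934, 0.365, 0.550 and 0.448 CPM in TBI day 1, and 0.918, 0.541, 0.541 and 1.25 CPM in sham day 14. The sham day 1 rats were again the lowest and the TBI day 1 rats overlapped sham day 14, but its log2 value of 1.66 against sham day 1 did not pass (adjusted p = 0.0680, edgeR).

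In another pattern, both day 1 groups were high. Rpl23, which lies at the face of the large subunit that meets the small one, had 247 and 309 CPM in sham day 1 and 356, 313, 354 and 544 CPM in TBI day 1. It had 92.4, 88.4, 78.8 and 85.9 CPM in sham day 14 and 95.1, 102, 87.7 and 90.5 CPM in TBI day 14. No day 1 rat overlapped a day 14 rat. The level of Rpl23 in sham day 1 exceeded that in sham day 14 by 1.69 ± 0.18 on the log2 scale (adjusted p = 0.00046, edgeR), while its difference between TBI and sham at day 1 was 0.49 ± 0.19 (adjusted p = 0.0833).

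Rps24, needed for maturation of the small-subunit RNA, had 190.5 and 152 CPM in sham day 1, 358, 218, 328 and 289.7 CPM in TBI day 1, and 87.8, 80.5, 70.7 and 73.9 CPM in sham day 14. Its level in sham day 1 exceeded that in sham day 14 by 1.13 ± 0.19 on the log2 scale (adjusted p = 0.00250, edgeR), and it rose with TBI at day 1 by 0.80 ± 0.20 (adjusted p = 0.0128). Rps7, which is also needed for small-subunit RNA processing, had 191 and 161 CPM in sham day 1 and 226, 219, 250.4 and 219.6 CPM in TBI day 1, against 77.7 to 99.7 CPM in sham day 14. The difference between the sham groups was 0.95 ± 0.13 (adjusted p = 0.00127, edgeR), and that between TBI and sham at day 1 was 0.38 ± 0.13 (adjusted p = 0.0624). Rps24 and Rps7 are thus ordered TBI day 1, sham day 1 and then both day 14 groups, with no overlap between these 3 levels.

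Among all members, the level in sham at day 1 was higher than at day 14 for 8 (11.0%) and lower for 12 (16.4%). Of all tested genes 11.3% were higher and 7.88% lower, so the share of higher members was near that of all genes. The median was -0.19 on the log2 scale beside 0.02 over all tested genes. The 5 largest differences upward were those of Rpl23, Rpl36a, Rps24, Rpl29 and Rps7, from 0.95 to 1.69. The 3 largest downward were those of Rps13, Rps18 and Rps2, from -2.17 to -2.03, and all 3 are of the small subunit. Rps13 rests on 3 and 4 counts in the sham day 1 rats. The 12 lower members had a median of 2194.5 counts over all samples and the 8 higher members of 42006 counts. The balance of directions depends on the sham day 1 rats. Without replicate 2 of that group, 10 members were higher and 2 lower, beside 5.13% and 2.06% of all tested genes, and Rps18, Rps13 and Rpl36a did not pass. Without replicate 1, 5 members were higher and 16 lower, beside 9.81% and 7.54%.

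**Figure D5:**
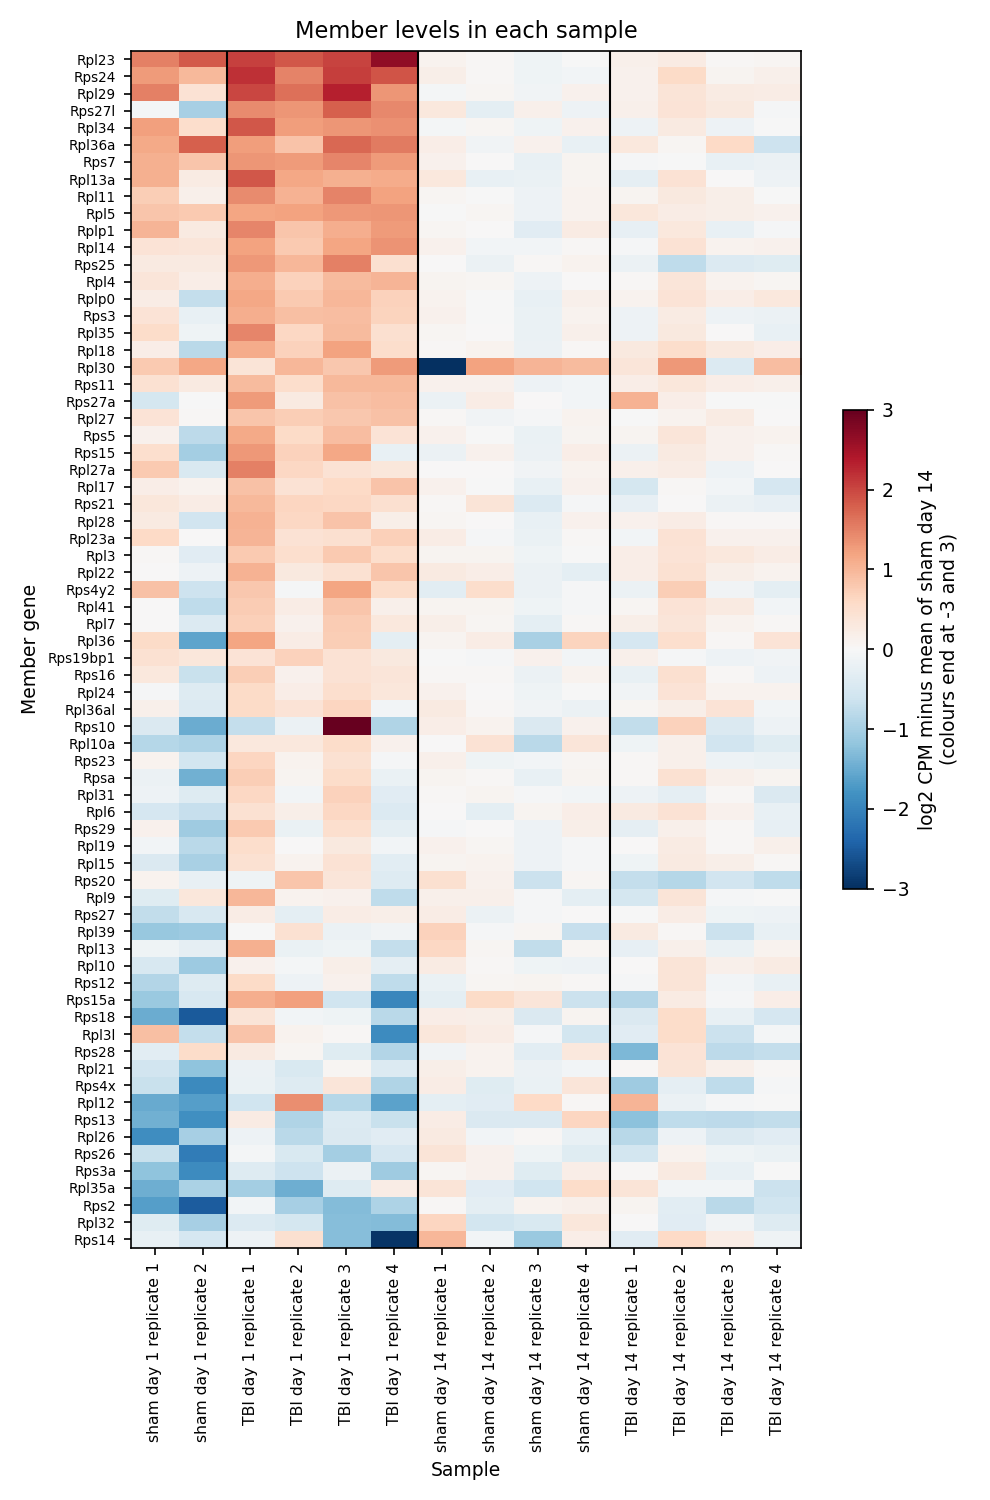
Level of 70 members (rows, ordered by the mean of TBI day 1) in each sample (columns, grouped by sham day 1, TBI day 1, sham day 14 and TBI day 14) as log2 CPM minus the mean of sham day 14. Red is higher and blue lower, and colours end at -3 and 3. The upper rows are red in TBI day 1 and in part in sham day 1, and lower rows such as Rps2, Rps13 and Rps18 are blue in sham day 1.

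At day 14 the median of the family was near the sham level, and that of the small subunit was near the median of all tested genes. By edgeR 0 of 73 members passed the test, against 4.07% of all tested genes that rose and 0.365% that fell, and at an unadjusted p under 0.05 there were 2 higher and 2 lower members beside 9.03% and 4.28% of all tested genes. By limma-voom and DESeq2 0 members passed as well, and in a fit of the day 14 samples alone 2 rose, Rpl18 and Rpl3, and 0 fell, beside 7.38% and 1.68% of the genes tested there. The large-subunit share of counts was 0.275% to 0.329% in TBI and 0.225% to 0.267% in sham, with no overlap. The small-subunit shares overlapped (0.107% to 0.137% and 0.0990% to 0.118%). The median log2 fold change of all members was 0.05, with quartiles of -0.10 and 0.16, beside -0.03 over all tested genes. It was 0.12 for the large subunit, with 29 of 42 above 0, and -0.04 for the small subunit, with 12 of 30 above 0. Of all 12875 tested genes 5684 were above 0. The subunits were not tested against each other. The largest values upward were those of Rps27a (0.39 ± 0.36), which is made as a fusion with ubiquitin, Rpl18 (0.34 ± 0.19) and Rpl3 (0.29 ± 0.12). The largest downward were those of Rps13 (-1.10 ± 0.43), Rps20 (-0.85 ± 0.37) and Rps28 (-0.58 ± 0.52), each with fewer than 300 counts over all samples.

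The levels behind these values overlapped for most members. Rpl3 had 424, 492, 462 and 430.3 CPM in TBI day 14, above all sham day 14 rats, at an adjusted p of 0.289 by edgeR. Rps20 had 0.663, 0.586, 0.745 and 0.634 CPM in TBI and 1.64, 1.26, 0.703 and 1.20 CPM in sham at day 14, with 1 sham rat in the TBI range. In 6 members all TBI rats lay above all sham rats and in 2 below, while 9.13% and 5.86% of all tested genes did so.

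The change of the injury effect between the days was tested directly. The effect at day 1 was larger than that at day 14 for 2 members, Rps27l by 1.80 ± 0.36 (adjusted p = 0.0136, edgeR) and Rps2 by 1.65 ± 0.42 (adjusted p = 0.0427) on the log2 scale, and smaller for 0, while 2.24% of all tested genes passed in the first direction and 1.44% in the other. The median difference over the members was 0.66, and it was above 0 in 69 of 73, as in 50.5% of all tested genes. With 1 sample left out in turn, Rps27l passed in 13 of 14 fits, all but the one without sham day 1 replicate 2 (adjusted p = 0.0601, edgeR). Rps2 passed in 5 of 14, and did not pass without sham day 1 replicate 2 (adjusted p = 0.200), any 1 sham rat of day 14, TBI day 1 replicate 2 or TBI day 14 replicate 2, 3 or 4. For the other 71 members a difference between the days did not pass the test, among them Rplp0 with 0.84 ± 0.28 and an adjusted p of 0.110.

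Paralog pairs are given side by side. Rpl36a, near the exit site of the large subunit, was high on day 1 in both groups, with 1.83 and 2.95 CPM in sham and 2.02, 1.50, 2.84 and 2.51 CPM in TBI against 0.653 to 0.918 CPM in sham day 14. Its paralog Rpl36al had 5.81 and 8.62 CPM in sham day 1 against 6.86 to 9.31 CPM in sham day 14. The difference between the sham groups was 1.60 ± 0.39 (adjusted p = 0.0134, edgeR) for Rpl36a and -0.11 ± 0.24 (adjusted p = 0.785) for Rpl36al. Whether the members of a pair differ from each other was not tested, and reads that match both copies could be counted for either or neither.

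Rpl22, a large-subunit protein that can bind other RNAs, rose at day 1 by 0.75 ± 0.23 (adjusted p = 0.0315, edgeR), with 15.7 and 14.2 CPM in sham and 19.2 to 32.7 CPM in TBI. Its paralog Rpl22l1, which is not a member, had 0.12 ± 0.32 (adjusted p = 0.827). Rps4x and Rps4y2 had 1.07 ± 0.52 (adjusted p = 0.161) and 0.40 ± 0.46 (adjusted p = 0.582) by edgeR. Rpl39 and Rpl26, both at the tunnel exit, had 1.32 and 1.03 and did not pass, Rpl10 rose by 0.76 and Rpl7 by 0.69. The highest fitted value of all, 2.68 for Rps10, was noticed after the values were seen and comes from 1 library: its counts were 195 in TBI day 1 replicate 3 and 5 to 24 in every other sample, with an adjusted p of 0.120.

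Against sham day 1, other parts of the translation machinery moved in the same direction at day 1 with smaller values. Of 36 tested translation factors 11 rose and 0 fell, with a median log2 fold change of 0.36. They include the helicase Eif4a1 (144 ± 5.2 CPM, SD, n = 2, in sham and 223 ± 21 CPM, SD, n = 4, in TBI) and the elongation factor subunit Eef1b2 (94.3 ± 1.4 and 159 ± 21 CPM). Of 19 other transcripts known for a 5′ pyrimidine run, 8 rose and 0 fell, with a median of 0.36, among them the poly(A)-binding protein Pabpc1 (0.91 ± 0.17, adjusted p = 0.0019, edgeR), the ribosome-bound scaffold Gnb2l1 (0.84 ± 0.21, adjusted p = 0.013) and the nucleolar protein Npm1 (0.80 ± 0.18, adjusted p = 0.0071). These lists overlap in part. Mitochondrial ribosomal proteins, which serve a separate ribosome, had 2 of 67 higher and 0 lower, with a median of 0.10. Those counts are against sham day 1, where 11.2% of all tested genes rose and 7.93% fell. With sham day 14 as baseline, 25 of 36 translation factors (median 0.55) and 12 of 19 pyrimidine-run transcripts (0.71) rose, and 0 fell. Of the mitochondrial ribosomal proteins 35 of 67 rose and 2 fell (0.40). The members had 35 of 73 higher and 1 lower (0.47), beside 25.0% and 21.0% of all tested genes.

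Of 14 tested regulators of ribosomal protein synthesis, 2 rose and 1 fell, shares near the 11.2% and 7.93% of all tested genes. Myc, a transcription factor known to drive ribosome production, had 11.9 ± 2.0 CPM (SD, n = 2) in sham and 50.2 ± 13 CPM (SD, n = 4) in TBI at day 1, which is 2.07 ± 0.23 on the log2 scale (adjusted p = 3.3e-05, edgeR). Eif4ebp1, a repressor of cap-dependent translation that mTOR inactivates, had 8.62 ± 5.4 and 23.5 ± 5.2 CPM (1.45 ± 0.33, adjusted p = 0.0070). The kinase Rps6ka2 fell by 0.47 ± 0.13 (adjusted p = 0.024). Mtor itself had -0.05 ± 0.12 (adjusted p = 0.81) against sham day 1. It was lower in TBI day 1 than in sham day 14 (-0.55 ± 0.10, adjusted p = 0.00058, edgeR). Sham day 1 was also below sham day 14 (-0.50 ± 0.13, adjusted p = 0.016). Against sham day 14, 5 of the 14 regulators rose and 4 fell, beside 25.0% and 21.0% of all tested genes. Myc also rose with TBI at day 14, by 0.67 ± 0.17 (adjusted p = 0.041, edgeR). Transcript levels do not measure the activity of these proteins or the translation of the ribosomal protein mRNAs.

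The letters at the start were counted by call, with no test of a difference. Of the members called at day 1 that matched a promoter entry, 17 of 25 (68.0%) held the pyrimidine run, and of those not called 23 of 33 (69.7%). CCGGAA was present in 40.0% and 57.6%. All of Rplp0, Rpl23, Rps24, Rps2 and Rps18, which follow different patterns above, hold the run. Every TBI day 1 rat lay above every other rat for Rps27l, Rpl3 and Rpl11, which lack the run at the start. The same held for Rplp0, Rpl5, Rps3 and Rps24, which have the run. Rpl36a, high on day 1 in both groups, lacks it at the start.

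Markers of several cell types also differed between TBI and sham. At day 1, astrocyte markers summed to 3022 to 4756 CPM in sham and 9818 to 15685 CPM in TBI, with Gfap the main part, and of the 6 markers 1 rose and 1 fell. Microglia and macrophage markers summed to 291 to 489 and 678 to 837 CPM, with 4 of 8 higher and 1 lower, blood leukocyte markers to 9.54 to 19.2 and 60.2 to 96.7 CPM, with 3 of 4 higher, and proliferation markers to 7.11 to 8.53 and 11.4 to 67.8 CPM, with 2 of 3 higher. Neuronal markers summed to 8104 to 10027 and 2962 to 6471 CPM, with 3 of 7 lower, and hippocampal markers to 918 to 969 and 246 to 924 CPM, with 2 of 4 lower. Oligodendrocyte markers summed to 9711 to 13503 and 3635 to 14709 CPM, with 1 of 4 lower, and endothelial markers to 145 to 250 and 220 to 336 CPM, with 1 of 4 higher. Precursors of oligodendrocytes had 0 of 2 markers passing, at 124 to 185 and 107 to 162 CPM. Red cell markers lay between 201 and 404 CPM (sham) and between 329 and 809 CPM (TBI) at day 1, and between 71.2 and 186 CPM in the day 14 sham rats. None of these lists had a defining marker at 0. Their part in the ribosomal protein values was not tested.

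Counts of these genes carry a limit of their own. The reference names 802 pseudogenes of the 72 matched members, with a median of 11 per member and up to 36 for Rps2. The handling of reads that match several places is not given in the sources used here, so low counts of a member can come from reads lost to its copies. Across the 72 members, the number of named pseudogenes had a Spearman correlation of 0.09 with the count sum and of 0.14 with the day 1 log2 fold change. The count sum had 0.46 with the difference between the sham groups. These are correlations across genes of the same libraries, given as a description.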

How the data were processed

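Per the labels and the study's methods, the authors checked the RNA-seq reads with FastQC, aligned them to rn5 with STAR 2.4.2a and counted them per gene with featureCounts 1.5.0; the deposited values are raw counts, used as deposited. H3K4me3 peak lists were not used here, because no rn5 annotation was used. Samples were grouped by their labels. Nothing says which rats shared a batch.

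edgeR 4.0.16 in R 4.3.3 was run with TMM factors, the default expression filter by group and 1 mean per group over 14 samples. P-values are two-sided and adjusted over 12875 genes. CPM values use TMM-scaled totals, and log2 CPM a prior count of 2. Named members were the 5 largest called changes in each direction per comparison (with no call, the 3 largest values), fixed functional sets and paralog pairs. A few members enter every count, share and fit but are not reported singly here. Members and lists were chosen with earlier results of these data known. The replicate numbers do not pair rats. Alternatives were limma-voom, DESeq2, other factors, filters, thresholds and baselines, and each sample left out. Scripts were tested on simulated data.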

Additional observations from a re-analysis of the deposited data

Results flagged for a closer look

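Of 78 groups of 4 samples examined for the named members, 3 held 1 sample far from the others by Dixon's 95% limit, and chance flags about 1 in 20 groups. Rps13 had a log2 CPM of -1.44 in TBI day 14 replicate 1, from 4 counts, against -0.99 to -0.92 in the other 3 rats. Rps24 had 6.86 in TBI day 14 replicate 2 against 6.37 to 6.43. Rps27 had 3.44 in TBI day 1 replicate 2 against 3.90 to 3.97.

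The injury effect differed between day 1 and day 14 by the test of the difference for Rps27l (1.80 on the log2 scale) and Rps2 (1.65). The sham day 1 rats had the lowest levels of Rps2, and 3 of the 4 TBI day 1 rats were below all sham day 14 rats. The Rps2 difference passed in 5 of 14 fits with 1 sample left out and that of Rps27l in 13.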

How the results depend on the processing

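At day 1, 29 to 43 members rose under limma-voom, DESeq2, other factors, other filters and the replicate block (32 with the block), 9 at an adjusted p under 0.01, and 1 in a fit of the 6 day 1 samples alone. The 29 came with no filter on low counts, where 1361 of 15002 tested genes rose and 1011 fell. The 43 came with library totals, where 2051 of 12875 rose and 573 fell and the median of all genes was 0.15. In the main fit 1437 rose and 1021 fell, with a median of -0.02. Leaving out 1 sample gave 1 to 40 calls and a median log2 fold change of 0.49 to 0.98, and both ends of the median come from the sham day 1 rats. The 40 calls were reached without sham day 1 replicate 1 and without TBI day 1 replicate 4. Against sham day 14 the median was 0.47. In that comparison the values of Rps18 (-0.13), Rps2 (-0.76), Rps13 (-0.51), Rpl39 (-0.0053), Rps4x (-0.26) and Rpl26 (-0.45) were below 0 and those of Rpl36a (1.48) and Rpl3l (0.022) above it. Back against sham day 1, Rpl36a had 0.059 with library totals and Rpl3l had 0.11 with the replicate block. Against the mean of both sham groups, a baseline added after seeing the data, Rpl36a had 0.69. With 1 sample left out, the values against sham day 1 ran from -0.85 to 0.20 for Rps28 and from -0.41 to 0.27 for Rpl36a. They ran from -0.98 to 0.98 for Rpl3l and from -0.20 to 1.38 for Rps4y2.

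At day 14, 0 members passed in each fit but that of the day 14 samples alone, with 2. For the difference between the days, DESeq2 called 11, library totals 6 and an adjusted p under 0.01 0 members, and leaving out 1 sample gave 0 to 10 calls and a median of 0.40 to 0.97. The count was 0 if sham day 1 replicate 2 was left out, 10 if it was the other sham rat of that day and 9 if it was TBI day 1 replicate 4. It was 1 if a sham rat of day 14 (replicate 1, 2 or 4) or a TBI rat of day 14 (replicate 3 or 4) was left out. Of all 12875 tested genes, this difference was called above 0 for 600 and below 0 for 453 by DESeq2. Library totals gave 417 and 139, and the main fit 288 and 186. Between the sham groups an adjusted p under 0.01 left 9 calls, and leaving out 1 sample gave 12 to 24 calls and a median of -0.50 to 0.053, which turns the sign of the median without sham day 1 replicate 2. Without the 100 most abundant other genes, the mean share was 0.494% in sham day 1, 0.896% in TBI day 1, 0.445% in sham day 14 and 0.509% in TBI day 14. The causes of these changes were not tested beyond the samples left out. The replicate numbers are not taken to pair the rats, since the correlations of same-numbered samples ran from -0.35 to 0.24, and the block moved no count of calls by over 1.5 times.

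With 2 sham rats at day 1, small changes and members with few counts cannot be resolved there, and a p that misses the threshold does not show that a level was unchanged. The p-values set differences between group means against the spread between rats within groups, pooled over the groups in a fit.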
